A study of Mus musculus with 5 samples.

Results

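DNA methylation in mammals is written and kept by DNA methyltransferases and removed through the Tet enzymes. Dnmt1 copies methylation onto the new strand after replication, and Uhrf1 recognises hemimethylated DNA and brings Dnmt1 to it. Dnmt3a and Dnmt3b methylate sites that carry no mark. Tet1, Tet2 and Tet3 oxidise 5-methylcytosine with 2-oxoglutarate as a co-substrate, and the isocitrate dehydrogenases Idh1, in the cytosol, and Idh2, in mitochondria, make 2-oxoglutarate. DNMT3A, TET2, IDH1 and IDH2 are among the genes most often mutated in clonal haematopoiesis and myeloid leukaemia. These 9 genes were taken by symbol from the 33894 named genes of the files, and all 9 were among the 13696 genes with enough counts to be tested.

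The RNA came from bone marrow stem cells of mice aged 8 weeks, sorted as CD34-Flt3- cells of the Lin-, Sca1+, c-Kit+ (LSK) gate. The wild type group (WT) had 2 libraries. The other group had 3 libraries labelled as Lrp5/6 double knockout (dKO), in which Vav-cre, a Cre driven across the blood lineages by the Vav promoter, acts on Lrp5 fl/fl and Lrp6 fl/fl, the floxed genes of both Wnt co-receptors. The labels give no Cre to the WT mice, so the transgene and the deletion cannot be told apart, and separate mice are not stated. The p-values therefore measure only the spread between these libraries.

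The shallowest library, dKO replicate 2, held 16028512 counts and the deepest, WT replicate 2, held 28027458. Neither targeted gene was lower in every library labelled dKO by whole-gene counts, a measure that cannot show loss of a deleted exon. Lrp6 had counts of 660 and 232 in WT against 790, 260 and 767 under the dKO label. Lrp5 had few counts, 7 and 32 in WT against 37, 2 and 71, and dKO replicate 2 was below both WT libraries. All 15 stem cell markers checked, among them Procr, Hlf and Mecom, had counts in every library. Of 9 genes listed as markers that the gate excludes 5 had counts in every library too. The 9 summed to 1188 to 1880 CPM (counts scaled to the library total by TMM). They included Ptprc, the gene of the CD45 protein of blood cells in general, so the sum is not one of excluded cells alone. Transcripts of the surface proteins used to exclude cells were among the 9. Cd34 measured 760 to 1211 CPM, and Flt3 238 and 116 CPM in WT against 338, 300 and 359 CPM, higher in every library labelled dKO. Cd3e and Ly6g, markers of T cells and granulocytes, had 0 counts in all 5. From 3 counts that allows up to 0.107 to 0.187 CPM, here scaled to the library total without TMM. WT replicate 2 stood apart in granulocyte progenitor transcripts, its 6 markers summing to 42188 CPM against 6439 CPM in WT replicate 1 and 11062 to 15736 CPM under the dKO label. The summed CPM of 3 marker lists was higher in every library labelled dKO: stem cell 1906 and 1250 in WT against 2465, 2693 and 2412, erythroid 95.7 and 101 against 162, 169 and 182, and megakaryocyte 64.6 and 58.1 against 118, 118 and 82.3. That of T and NK cell markers was lower in every one, at 711 and 1887 in WT against 570, 708 and 690. Their part in the values of the 9 genes was not tested. dKO replicate 2 stood apart in depth and in log2 CPM, where its highest correlation across genes with another library was 0.851, against 0.906 to 0.925 for the others.

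The sequence before the transcription start was taken from RefSeq on build GRCm38.p6, a later build than that of the files, and all 9 genes had at least 1 window of 250 bases there, 15 windows in all. It is shown for Uhrf1, the gene with the smallest p among the 9, and for Dnmt1, its partner, with capitals marking a match to the E2F motif that many S phase genes carry. Both genes had more than 1 window, and for each the one that held a match was chosen. The Uhrf1 window shown, chr17:56304063-56304312 on the plus strand, overlaps no exon in GENCODE M21. For Dnmt1 only the 30 bases around the match are shown, chr9:20952824-20952853 on the minus strand, which lie in the 5′ untranslated part of an exon of the transcript Dnmt1-201. An exon of the transcript Dnmt1-205 overlaps them too and covers the match.
Uhrf1: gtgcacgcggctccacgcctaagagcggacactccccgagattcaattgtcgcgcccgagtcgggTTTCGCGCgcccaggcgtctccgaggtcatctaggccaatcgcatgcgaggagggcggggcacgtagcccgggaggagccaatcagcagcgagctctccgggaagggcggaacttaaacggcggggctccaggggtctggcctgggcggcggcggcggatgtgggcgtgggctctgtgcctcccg
Dnmt1: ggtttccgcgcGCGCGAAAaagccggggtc
The motif was searched on both strands as TTTCCCGC, TTTGGCGC, TTTCGCGC or TTTGCCGC. Both matches were to TTTCGCGC, 185 to 178 bases before the start on the sense strand in Uhrf1 and 219 to 212 bases before that start on the opposite strand in Dnmt1. The other 7 genes had no such letters in their windows. A match was held by 1.86% of all 32851 windows, by 3.23% of the 11749 windows of tested genes and by 4 of 15 windows of an S phase gene list described with Uhrf1. A match is a description of these letters only.

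The windows of Dnmt3b and Tet2 are shown because these genes were higher in every library labelled dKO on both deposited scales. Capitals mark the GC box, searched as GGGCGG on both strands and present in 13 of the 15 windows of the 9 genes and in 55.8% of the windows of tested genes. The Dnmt3b window is chr2:153649199-153649448 on the plus strand and the Tet2 window chr3:133544391-133544640 on the minus strand, and neither overlaps an exon in GENCODE M21. The stretch just after the RefSeq start was found in 0 GENCODE M21 transcripts of Dnmt3b, and in 1 of Tet2.
Dnmt3b: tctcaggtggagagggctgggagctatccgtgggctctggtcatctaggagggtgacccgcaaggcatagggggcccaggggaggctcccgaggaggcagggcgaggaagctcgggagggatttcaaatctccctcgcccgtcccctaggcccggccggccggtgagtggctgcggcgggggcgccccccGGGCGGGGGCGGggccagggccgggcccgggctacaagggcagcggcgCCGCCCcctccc
Tet2: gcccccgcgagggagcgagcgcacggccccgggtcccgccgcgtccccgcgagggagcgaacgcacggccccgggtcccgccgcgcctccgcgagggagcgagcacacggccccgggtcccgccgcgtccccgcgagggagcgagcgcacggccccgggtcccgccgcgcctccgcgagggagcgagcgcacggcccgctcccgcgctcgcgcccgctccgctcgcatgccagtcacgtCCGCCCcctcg
The Tet2 window held 51 CpG dinucleotides, the Uhrf1 window shown 30 and that of Dnmt3b 21, against a median of 15 over the windows of tested genes. The Uhrf1 window not shown, which had no E2F match, held 10. The Tet2 window also held 4 copies of the stretch cacggccccgggtcccgccgcg, 22 bases long. The Wnt effector motif CTTTGA, for TCF/LEF factors, was in 2 of the 15 windows, 1 of the 3 of Dnmt1 and that of Idh2, and in 10.5% of the windows of tested genes.

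Levels were compared between genes on the deposited TPM scale, which is per length. Idh2 was the most abundant of the 9 in every library, at 425 ± 45.5 TPM (SD over all 5 libraries), and its range did not overlap that of Idh1, next at 123 ± 33.3 TPM. Dnmt1 at 71.2 ± 13.0 TPM and Uhrf1 at 63.9 ± 16.0 TPM could not be ordered, since Dnmt1 was the higher in 3 of 5 libraries. The ranges of Idh1 and Dnmt1 overlapped too, although Idh1 was above Dnmt1 in all 5. Both maintenance genes stood clear of the other Dnmt and Tet genes: the lowest Uhrf1 value, 41.8 TPM, was above the highest Dnmt3b value, 32.7 TPM. Dnmt3b followed at 24.8 ± 6.66 TPM, Tet1 at 15.3 ± 10.1 TPM and Dnmt3a at 12.6 ± 4.99 TPM, with overlapping ranges. Tet3 at 4.23 ± 1.58 TPM and Tet2 at 2.14 ± 1.001 TPM were the lowest, and Tet3 was above Tet2 in all 5 libraries with overlapping ranges.

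**Figure D1:**
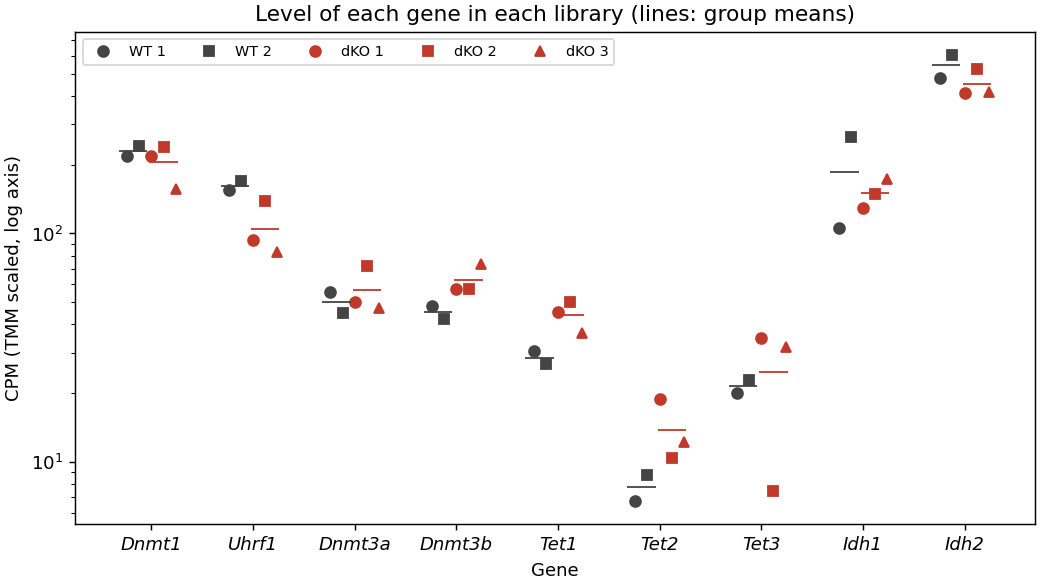
TMM-scaled CPM (log axis) of the 9 genes in each of the 5 libraries, with group means as lines (2 WT libraries in grey, 3 labelled dKO in red). Uhrf1 lies lower in every library labelled dKO, Dnmt3b, Tet1 and Tet2 lie higher in every one, and the groups of the other 5 genes overlap.

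The comparison asks whether these genes differ between stem cells labelled as lacking Lrp5 and Lrp6 and WT. On the CPM scale Uhrf1 was lower in every library labelled dKO, Dnmt3b, Tet1 and Tet2 were higher in every one, and Dnmt1, Dnmt3a, Tet3, Idh1 and Idh2 overlapped between the groups. With edgeR's quasi-likelihood test and Benjamini-Hochberg adjustment over all tested genes, none of the 9 passed a threshold of 0.05, and 0 passed by DESeq2 or limma-voom. The background was also empty: 0 of 13696 genes were called by edgeR (0% in each direction, 1388 genes or 10.1% at an unadjusted p under 0.05), against 245 by DESeq2 and 0 by limma-voom. At that unadjusted level 4.94% of all tested genes were higher and 5.19% lower, and of the 9 genes 1 was lower, a share close to the background. Of all tested genes 13.7% lay higher and 15.7% lower in every library labelled dKO, or 29.3% in either direction, where the 9 genes gave 3 and 1. Positive log2 fold changes were found for 5 of the 9 genes and for 52.2% of all tested genes. The median log2 fold change of the 9 was 0.17 against 0.04 for all tested genes.

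**Figure D2:**
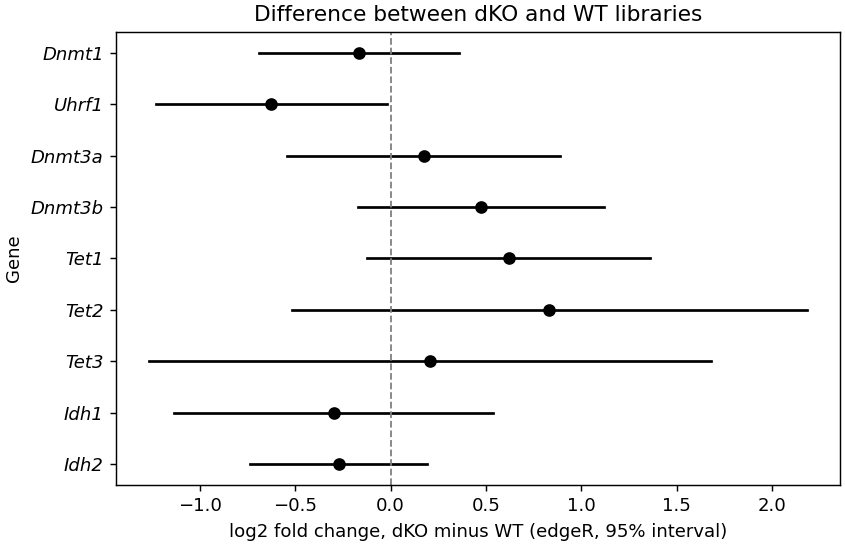
Log2 fold change of each gene, dKO minus WT, by edgeR (point) with its 95% interval (line), from 2 WT libraries and 3 labelled dKO. The interval of Uhrf1, -1.23 to -0.02, lies below 0, and those of the other 8 genes include 0.

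Uhrf1 (ENSMUSG00000001228.8), the reader of hemimethylated DNA, measured 155 and 169 CPM in WT replicates 1 and 2 against 93.9, 138 and 83.0 CPM in dKO replicates 1, 2 and 3. The groups did not overlap, and dKO replicate 2 was the nearest to WT. The means were 162 ± 10.5 CPM (SD, n = 2) and 105 ± 29.2 CPM (SD, n = 3). The log2 fold change was -0.63 (SE 0.26, 95% interval -1.23 to -0.02), with adjusted p = 0.491 and unadjusted p = 0.0444 by edgeR. It was negative in all 14 alternatives run, from -0.86 (edgeR without dKO replicate 2) to -0.44 (limma on TPM), with adjusted p from 0.311 to 0.9996. In deposited TPM the groups overlapped, since dKO replicate 2 at 76.2 TPM was above the WT values of 76.0 and 73.5 TPM while dKO replicates 1 and 3 had 51.7 and 41.8 TPM.

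Genes of S phase were lower beside Uhrf1. The list held 17, with Pcna, the Mcm helicase subunits and the nucleotide enzymes Rrm1, Rrm2 and Tyms among them, and also Top2a, Mki67 and Ccna2, whose expression goes on past S phase. All 17 had negative log2 fold changes, with a median of -0.62 against 0.04 for all tested genes, and 16 were lower in every library labelled dKO against 15.7% of all tested genes. In TPM 10 of the 17 were lower in every such library, against 8.81% of all tested genes. By edgeR 0 of the 17 passed and 11 had an unadjusted p under 0.05, all lower, against 5.19% of all tested genes in that direction. By DESeq2, which called 91 of 13696 tested genes lower, 4 passed (Pcna, Mcm4, Gins2 and Mcm2), and by limma-voom 0. Pcna, the sliding clamp of DNA polymerase, measured 516 and 466 CPM in WT against 264, 307 and 298 CPM under the dKO label, and Mcm4 453 and 431 CPM against 288, 269 and 220 CPM. Gins2, part of the replicative helicase, had 75.8 and 80.0 CPM against 36.6, 33.6 and 40.7 CPM, but overlapped in TPM at 50.1 and 37.4 against 44.2, 50.2 and 33.2. The summed level of the 17 was 6308 and 6577 CPM in WT against 3843, 4701 and 3717 CPM in the libraries labelled dKO, with dKO replicate 2 the highest of these, as for Uhrf1. Fewer cells in S phase and less RNA of these genes per cell cannot be told apart in bulk RNA, and the part of either in the Uhrf1 values was not tested.

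**Figure D3:**
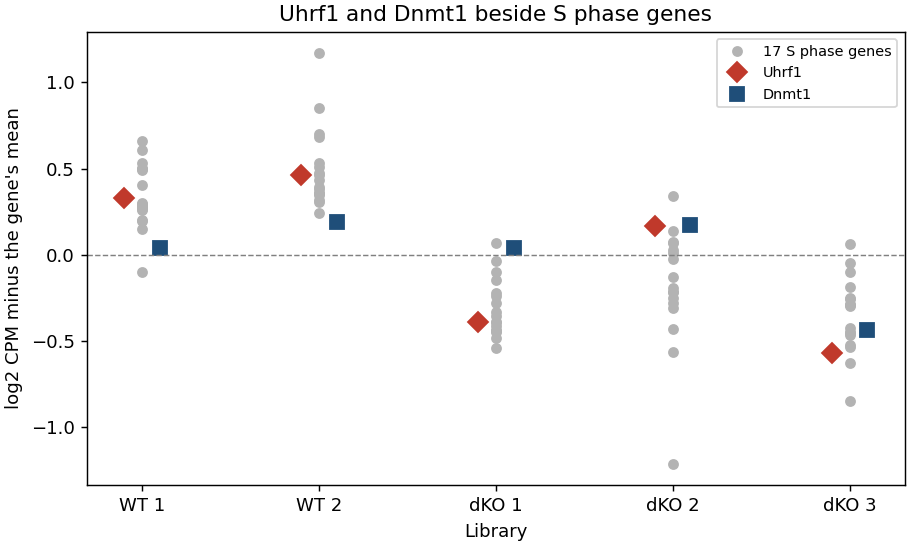
Log2 CPM of Uhrf1 (red diamonds), Dnmt1 (blue squares) and 17 S phase genes (grey) in each library, each minus its own mean over the 5 libraries. Uhrf1 is above its mean in both WT libraries, by 0.33 and 0.46, and below it in dKO replicates 1 and 3, by -0.39 and -0.57, while Dnmt1 in dKO replicate 1, at 0.04, is level with WT replicate 1.

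Dnmt1 (ENSMUSG00000004099.8), the maintenance methyltransferase, did not follow Uhrf1 in every library. It measured 218 and 242 CPM in WT against 218, 240 and 157 CPM in dKO replicates 1, 2 and 3, so that only dKO replicate 3 was low. The means were 230 ± 16.997 CPM (SD, n = 2) and 205 ± 42.9 CPM (SD, n = 3), and the log2 fold change was -0.17 (95% interval -0.69 to 0.36, adjusted p = 0.888 by edgeR). Without dKO replicate 3 the log2 fold change was -0.0039, and in TPM the means were 70.4 ± 2.37 (SD, n = 2) and 71.8 ± 18.2 (SD, n = 3). The ratio of Uhrf1 to Dnmt1 counts was 0.709 and 0.7001 in WT against 0.430, 0.576 and 0.529 in the libraries labelled dKO, and the ratio in TPM 1.06 and 1.07 against 0.651, 0.898 and 0.819. On both scales the ratio was lower in every library labelled dKO, a quantity chosen with the values in view and not tested.

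Of the de novo methyltransferases, Dnmt3b was higher under the dKO label in both kinds of deposited values and Dnmt3a overlapped in both. Dnmt3b (ENSMUSG00000027478.9) measured 48.4 and 42.0 CPM in WT against 57.2, 57.4 and 73.8 CPM in dKO replicates 1, 2 and 3, higher in every library labelled dKO. The means were 45.2 ± 4.48 CPM (SD, n = 2) and 62.8 ± 9.55 CPM (SD, n = 3), with a log2 fold change of 0.48 (SE 0.28, 95% interval -0.17 to 1.12, adjusted p = 0.613 by edgeR). TPM gave the same order, 20.8 and 15.5 in WT against 27.9, 26.9 and 32.7 in the libraries labelled dKO, and every alternative gave a positive value, from 0.35 to 0.69. In TPM 18.6% of tested genes lay higher in every library labelled dKO, and 2 of the 9 genes did, Dnmt3b and Tet2. Lower in every such library were 8.81% of tested genes and 0 of the 9.

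Dnmt3a (ENSMUSG00000020661.9), the de novo enzyme whose loss is known to expand stem cells, measured 55.2 and 45.1 CPM in WT against 50.3, 72.3 and 47.2 CPM in dKO replicates 1, 2 and 3. dKO replicate 2 was the highest and the other libraries overlapped. The log2 fold change was 0.17 (95% interval -0.54 to 0.89, adjusted p = 0.922 by edgeR), and -0.032 without dKO replicate 2. In TPM the sign turned, with 15.6 and 13.3 TPM in WT against 9.59, 18.5 and 5.81 TPM in the libraries labelled dKO, and a log2 fold change of -0.46 on the log2(TPM + 1) scale (adjusted p = 0.823 by limma). The groups overlapped on both scales.

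Counts and TPM of Dnmt3a stood in different proportion in different libraries. The transcript length that the pair implies, the count divided by TPM and calibrated on 555 genes with 1 annotated transcript, was 6176 and 5103 bases for Dnmt3a in WT against 10132, 7554 and 14019 bases in dKO replicates 1, 2 and 3. Its highest value was 2.75 times the lowest, a ratio exceeded by 2.49% of 8584 genes with at least 100 counts in every library, whose median ratio was 1.12. The implied length of Tet1 varied in the same measure, from 3043 bases in dKO replicate 2 to 8483 bases in dKO replicate 3 (2.79 times, exceeded by 2.40% of genes), and that of Tet3 was 5488 bases in dKO replicate 2 against 9945 to 10614 bases in the other 4 libraries. For Dnmt1, Uhrf1, Dnmt3b, Idh1 and Idh2 the ratio was between 1.01 and 1.07, and for Tet2 1.12. GENCODE M21 lists 13 coding transcripts of Dnmt3a, from 467 to 9685 bases, and 8 of Tet1, from 361 to 14369 bases. The values of Dnmt3a in dKO replicates 1 and 3 were above its longest listed coding transcript. This was not particular to Dnmt3a. The values of Idh2, 1933 to 2071 bases, were above its longest coding transcript of 1745 bases in every library. Those of Tet2 were above its longest, 9179 bases, in every library but WT replicate 1. Which transcript forms were present cannot be read from values per gene.

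**Figure D4:**
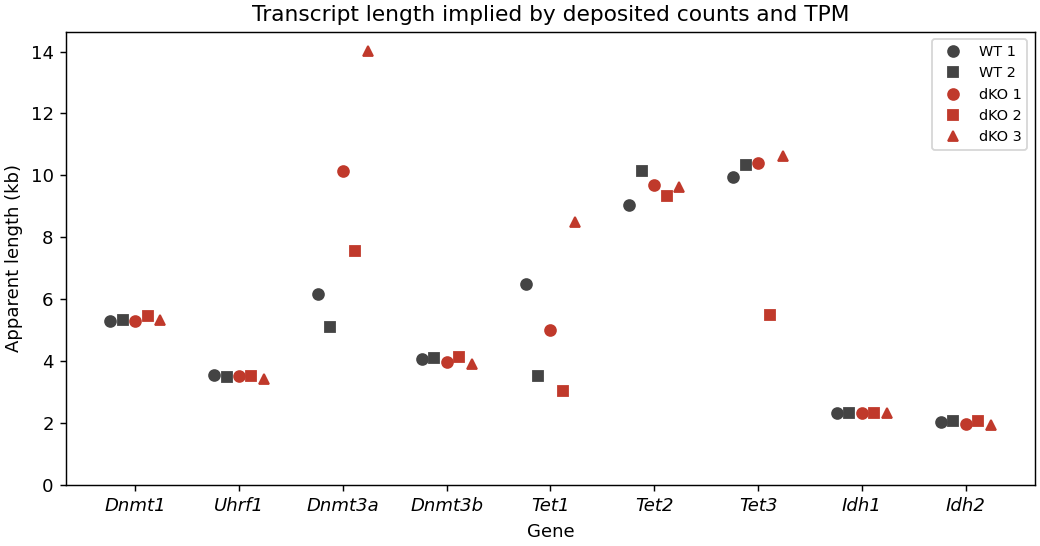
Transcript length in kb implied by the deposited count and TPM of each gene in each library (grey WT, red labelled dKO). The 5 libraries lie together for Dnmt1, Uhrf1, Dnmt3b, Tet2, Idh1 and Idh2 and spread 2.75 times for Dnmt3a and 2.79 times for Tet1, and Tet3 is low in dKO replicate 2 alone.

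The Tet genes all had positive log2 fold changes by counts. Tet1 (ENSMUSG00000047146.8) measured 30.5 and 26.8 CPM in WT against 45.2, 50.2 and 36.7 CPM in dKO replicates 1, 2 and 3, higher in every library labelled dKO. The means were 28.6 ± 2.67 CPM (SD, n = 2) and 44.0 ± 6.82 CPM (SD, n = 3), and the log2 fold change was 0.62 (SE 0.32, 95% interval -0.12 to 1.36, adjusted p = 0.561 by edgeR). Alternatives ranged from 0.52 to 0.74. In TPM dKO replicate 3, at 7.47, was below both WT values of 8.21 and 11.5, while dKO replicates 1 and 2 had 17.4 and 31.9 TPM, so the groups overlapped there.

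Tet2 (ENSMUSG00000040943.7), the Tet gene most often lost in blood cancers, had the lowest mean count of the 9, although Tet3 was below it in dKO replicate 2. Its counts were 177 and 219 in WT against 511, 172 and 329 in dKO replicates 1, 2 and 3, or 6.72 and 8.77 CPM against 18.8, 10.4 and 12.2 CPM. The groups did not overlap, dKO replicate 1 being the highest and dKO replicate 2 the nearest to WT. The log2 fold change was 0.83 (SE 0.58, 95% interval -0.52 to 2.18, adjusted p = 0.699 by edgeR), and 0.54 without dKO replicate 1. Its TPM was 1.30 in both WT libraries, below the 3.75, 2.16 and 2.19 of the libraries labelled dKO.

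Tet3 (ENSMUSG00000034832.8) was the most variable of the 9 by counts. It measured 19.97 and 22.9 CPM in WT against 35.0, 7.43 and 31.8 CPM in dKO replicates 1, 2 and 3, so that the libraries labelled dKO lay on both sides of WT. dKO replicate 2, the shallowest library, held 123 Tet3 counts, against 526 to 950 elsewhere. The log2 fold change was 0.21 (95% interval -1.27 to 1.68, adjusted p = 0.962 by edgeR), and leaving out dKO replicate 1, 2 or 3 gave -0.13, 0.65 or -0.0096. Its standard deviation within groups, 1.02 in log2 CPM, was above that of 72.7% of tested genes, whereas those of Dnmt3b (0.19) and Tet1 (0.20) were above 10.9% and 12.6%.

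The makeup of each family was described by shares of its summed TPM. Dnmt1 made up 68.4 ± 2.83% of the 3 Dnmt genes in WT (SD, n = 2) and 63.4 ± 5.70% in the libraries labelled dKO (SD, n = 3), Dnmt3b 17.6 ± 2.33% and 27.0 ± 8.40%, and Dnmt3a 14.02 ± 0.504% and 9.64 ± 4.06%. The Dnmt3b share was highest in dKO replicate 3, at 36.5%, and above both WT values of 19.2% and 15.9% in each library labelled dKO. Tet1 was the main Tet transcript, at 67.1 ± 5.69% of the 3 Tet genes in WT against 66.8 ± 18.6% in the libraries labelled dKO, reaching 87.0% in dKO replicate 2, where Tet3 was at 7.14%. Summed over the 3 Tet genes, CPM was 57.2 and 58.4 in WT against 99.0, 68.0 and 80.6 in the libraries labelled dKO, while TPM was 13.0 and 16.1 against 27.6, 36.7 and 14.8, where dKO replicate 3 lay between the WT values. The sum over the 3 Dnmt genes overlapped between the groups on both scales. With CPM per kb of merged exons, a fixed length for each gene, the Dnmt3a share was 7.01 ± 1.16% in WT against 7.76 ± 1.13% in the libraries labelled dKO, so its lower share in TPM was not seen on that scale.

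**Figure D5:**
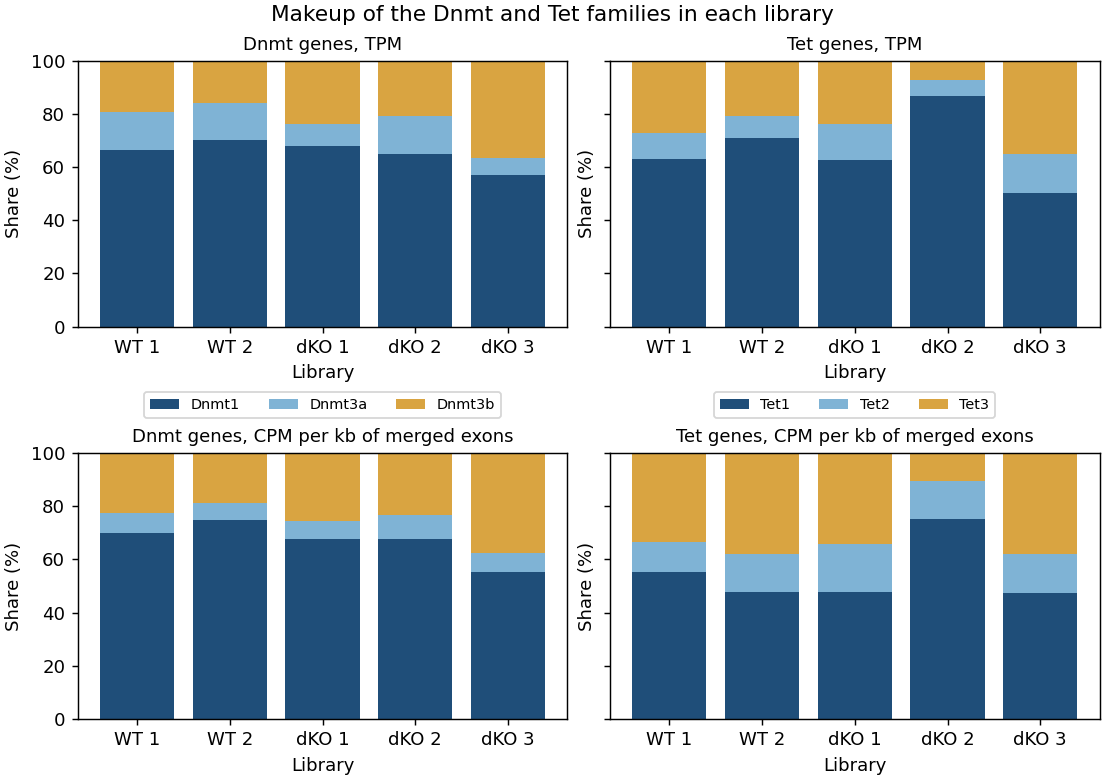
Share (%) of each gene in the summed level of the 3 Dnmt genes (left) and the 3 Tet genes (right) per library, from deposited TPM (top) and from CPM per kb of merged exons (bottom). Dnmt1 and Tet1 take the largest part in each library, Tet3 is smallest in dKO replicate 2, and the Dnmt3b share is highest in dKO replicate 3 at 36.5% of TPM.

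Neither isocitrate dehydrogenase separated the groups. Idh2 (ENSMUSG00000030541.10), the mitochondrial enzyme, measured 481 and 607 CPM in WT against 411, 525 and 414 CPM in dKO replicates 1, 2 and 3, with a log2 fold change of -0.27 (SE 0.20, 95% interval -0.74 to 0.19, adjusted p = 0.722 by edgeR). It was -0.10 without WT replicate 2, and -0.04 in TPM. Idh1 (ENSMUSG00000025950.9), the cytosolic enzyme, measured 106 and 264 CPM in WT against 129, 150 and 174 CPM in the libraries labelled dKO, which all lay between the WT values. Its log2 fold change was -0.30 (95% interval -1.13 to 0.54, adjusted p = 0.867 by edgeR), 0.50 without WT replicate 2 and 0.034 with all 5 libraries on the log2(TPM + 1) scale, so its sign turned in both. WT replicate 2 carried 42188 CPM of the 6 granulocyte progenitor markers, whose part in its Idh1 value was not tested. Idh2 exceeded Idh1 in TPM by 5.18 times in WT replicate 1, 2.59 times in WT replicate 2 and 2.86 to 3.93 times in the libraries labelled dKO.

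Partners of the methyltransferases were given as a list of 15, of which 14 were tested. By counts 10 had negative and 4 positive log2 fold changes, with a median of -0.40 against 0.04 for all tested genes. In CPM 9 were lower in every library labelled dKO, against 15.7% of all tested genes, and 1, Usp7, was higher, against 13.7%. Dnmt3l was among the 9 although WT replicate 1 and dKO replicate 1 both held 16 counts, at 0.608 and 0.589 CPM. In TPM 1 was lower in every such library, Hells, against 8.81% of all tested genes. On that scale 2 were higher in every one (Usp7 and Ehmt2), against 18.6%, and 6 of the 14 had a higher mean. The smallest p-values were those of Hells, the chromatin remodeller needed for normal DNA methylation, Lig1, the ligase of replication that binds Uhrf1, and Suv39h1, a histone H3 lysine methyltransferase. Hells measured 154 and 182 CPM in WT against 86.6, 105 and 97.9 CPM in the libraries labelled dKO (log2 fold change -0.80, adjusted p = 0.430 by edgeR), Lig1 had -0.69 and Suv39h1 -0.58. Usp7, a deubiquitinase that binds Dnmt1 and Uhrf1, had 0.34, Ehmt2 0.53 and Uhrf2, the paralog of Uhrf1, 0.03. None passed by edgeR, DESeq2 or limma-voom. By edgeR 3 of the 14 had an unadjusted p under 0.05, all lower, against 5.19% of all tested genes in that direction. Dnmt3l, the inactive cofactor of Dnmt3a and Dnmt3b, was counted 16 and 32 times in WT against 16, 0 and 0 in dKO replicates 1, 2 and 3, and Dppa3 had 0 counts in every library.

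Transcripts of the methyl-CpG-binding domain family and of zinc finger readers of methylated DNA were split in direction. Of 8 tested, 4 had positive and 4 negative values, with a median of 0.01. Mbd3 had a log2 fold change of -0.62, Mbd4, a glycosylase, -0.64 and Mbd2 -0.39, against 0.93 for Zbtb4, 0.19 for Mbd1 and 0.09 for Zbtb38. None passed by edgeR, DESeq2 or limma-voom, and 0 had an unadjusted p under 0.05 by edgeR. Without WT replicate 2 the median was -0.28, and in TPM 3 of the 8 had a higher and 5 a lower mean.

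Tet partners and base excision repair genes, which act after oxidation, had 12 positive and 4 negative values among 16 tested, with a median of 0.34. The 3 with the smallest p were all Tet partners: Ogt, the O-GlcNAc transferase that binds Tet proteins, its substrate Hcfc1, and Cxxc5, a CXXC domain protein related to a Tet2 regulator. Ogt measured 406 and 339 CPM in WT against 522, 636 and 551 CPM in the libraries labelled dKO, all above WT (log2 fold change 0.61, adjusted p = 0.436 by edgeR). Cxxc5 measured 51.6 and 29.1 CPM against 68.2, 108 and 69.8 CPM (1.02), and Hcfc1 71.2 and 72.7 CPM against 99.7, 133 and 94.2 CPM (0.60). On the other side the AP endonuclease Apex1 had -0.64, Parp1 -0.29 and the glycosylase Tdg, which removes oxidised methylcytosine, -0.15. These 3 partners had an unadjusted p under 0.05 by edgeR, against 4.94% of all tested genes in that direction, and none of the 16 passed by edgeR, DESeq2 or limma-voom. In TPM Ogt and Cxxc5 were again higher in every library labelled dKO and Hcfc1 overlapped. Cxxc4 and Wt1 had 0 counts in every library, which allows up to 0.107 to 0.187 CPM.

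Enzymes that make or use 2-oxoglutarate had 18 negative and 6 positive values among 24 tested, with a median of -0.17, or -0.04 without WT replicate 2. Psat1, of serine synthesis, measured 176 and 284 CPM in WT against 95.7, 99.6 and 115 CPM in the libraries labelled dKO (log2 fold change -1.15), and Idh3a, the catalytic subunit of the NAD-dependent isocitrate dehydrogenase, 291 and 421 CPM against 181, 193 and 218 CPM (-0.85). Both were lower in every library labelled dKO, and these 2 passed by DESeq2, which called 91 of 13696 tested genes lower. By edgeR 0 passed and 3 of the 24 had an unadjusted p under 0.05, all lower, against 5.19% of all tested genes in that direction. By limma-voom 0 passed. In TPM 13 of the 24 had a higher and 11 a lower mean, and Psat1 and Idh3a were again lower in every library labelled dKO. The aspartate aminotransferase Got2 had -0.78. Dlst, of the 2-oxoglutarate dehydrogenase complex, had 0.43, Bcat1, a branched-chain aminotransferase, 1.15 from at most 5.63 CPM, and Aco1 0.24.

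Genes of the methyl donor cycle, which supplies S-adenosylmethionine, had 10 negative and 4 positive values among 14 tested, with a median of -0.29, or -0.15 without WT replicate 2. Shmt1, which passes serine carbon to folate, measured 142 and 183 CPM in WT against 76.2, 104 and 78.5 CPM in the libraries labelled dKO (log2 fold change -0.92). The mitochondrial folate enzyme Mthfd2 had 32.1 and 74.2 CPM against 16.98, 21.4 and 15.8 CPM (-1.56), and Ahcy, which clears S-adenosylhomocysteine, a product inhibitor of methyltransferases, 39.3 and 44.7 CPM against 26.9, 20.3 and 21.8 CPM (-0.87). Ahcyl2 had 2.09 from 2.77 and 2.80 CPM in WT, and the reductase Mtrr 1.06. None passed by edgeR, DESeq2 or limma-voom, and 5 of the 14 had an unadjusted p under 0.05 by edgeR, 4 of them lower, against 10.1% of all tested genes. In TPM 4 were lower and 3 higher in every library labelled dKO, against 8.81% and 18.6% of all tested genes. Mat2a, which makes S-adenosylmethionine, overlapped between the groups at 385 and 461 CPM in WT against 431, 325 and 281 CPM under the dKO label, and was chosen after its values were seen.

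Genes whose pattern over the 5 libraries was most like each of the 9 were ranked by the root mean square difference in log2 CPM after each gene was centred on its mean, among 10063 genes with a mean of at least 5 CPM. For Uhrf1 they were Iars (0.07), Mcm5 (0.09) and Fam111a (0.09), with 151 genes within 0.2. Mcm5, a subunit of the replicative helicase, measured 433 and 487 CPM in WT against 301, 370 and 227 CPM under the dKO label. For Dnmt1 they were Tmem206, Eapp and Mphosph9 at 0.04 to 0.05, with 576 genes within 0.2. The fewest neighbours within 0.2 were those of the most variable of the 9 genes, Tet3 (19), Tet2 (27) and Idh1 (39). The nearest gene to Idh1 was Aurka (0.08), a mitotic kinase, at 112 CPM in WT replicate 2 against 48.2 to 69.7 CPM in the other 4 libraries. The nearest were Rftn1 for Dnmt3a, Lgals8 for Dnmt3b, Grina for Tet1, Psd4 for Tet2, Adrbk2 for Tet3 and Ppp1ca for Idh2, at 0.03, 0.05, 0.03, 0.11, 0.12 and 0.03. Among the 9 genes themselves Dnmt1 and Idh2 were the closest pair (0.17), then Uhrf1 and Idh2 (0.24), and Dnmt1 and Uhrf1 differed by 0.27.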

How the data were processed

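Bulk RNA sequencing of 5 libraries (2 WT, 3 labelled dKO) was used, each from 6K sorted cells amplified by Smart-seq2, per the labels' protocols. The authors deposited raw counts per gene and TPM per gene for each library. RSEM 1.2.31, HTSeq, TopHat2 2.1.1, DESeq2, Trimmomatic, FastQC 0.11.5 and the build mm9 appear in the submitters' processing notes. Their roles are not given in the sources used here. Of 33924 entries, 30 name no gene and took 0.216% to 0.269% of counts. They were left out.

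The main test of counts was the quasi-likelihood test of edgeR 4.0.16, run in R 4.3.3 (TMM scaling, filterByExpr, robust quasi-likelihood fits, all 5 libraries, no covariate, Benjamini-Hochberg adjusted p under 0.05), with DESeq2 1.42.0 and limma 3.58.1 as alternatives. The fits were tested on simulated data. CPM are TMM scaled, except for limits from 3 counts, and fold changes from TPM are on the log2(TPM + 1) scale. The 9 genes and the lists were chosen with earlier results of these data known. Genes were named by a rule: all 9, up to 3 per list and direction with the smallest p, and the 3 nearest in pattern. Some genes that the rule names are not reported here. No 2 libraries of a group were duplicates (chi-square of their counts over its degrees of freedom, 106 to 172). Transcript lengths came from GENCODE M21 by Ensembl identifier, on GRCm38, and promoter windows from RefSeq by symbol. Limits from 3 counts cover counting error only, and 95% intervals are from the fitted standard errors, which hold the spread between libraries.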

Additional observations from a re-analysis of the deposited data

How the results depend on the processing

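Across 14 alternatives for each of the 9 genes, 117 of 126 values kept their sign, none was called, and 9 reversed; the cause was not tested. Dnmt3a was -0.46 and -0.51 by limma on log2(TPM + 1) and log2(TPM + 0.1), Idh1 0.034 and 0.035, and Tet3 -0.40 with the replicate number as a block. Leaving out each library in turn gave -0.28 to -0.0039 for Dnmt1, -0.86 to -0.48 for Uhrf1, -0.032 to 0.32 for Dnmt3a, 0.35 to 0.57 for Dnmt3b, 0.52 to 0.74 for Tet1, 0.54 to 1.03 for Tet2, -0.13 to 0.65 for Tet3, -0.82 to 0.50 for Idh1 and -0.44 to -0.10 for Idh2. Where 1 WT library remained, its spread was taken from the dKO libraries. The number of genes called, 0 with all libraries, was 245 by DESeq2 (154 higher, 91 lower), 8 without a filter, 5 and 2 on log2(TPM + 1) and log2(TPM + 0.1), 1 with the replicate block and 0 to 5 with a library left out (5 without WT replicate 1, 1 without WT replicate 2, 1 without dKO replicate 2). Deviations from the group mean correlated at 0.03 and 0.05 between same-numbered libraries, and at 0.03 between WT replicate 1 and dKO replicate 3. With 2 WT libraries, whose deviations mirror each other, this cannot show whether same-numbered libraries shared more than a number. The median of the 9 genes, 0.17, was 0.042 by limma-voom, 0.034 and 0.035 on the TPM scales, -0.0065 with the block and -0.13 to 0.31 with a library left out. The difference in the Dnmt3a share, -4.38 percentage points in TPM, was 1.90 in CPM and 0.75 in CPM per kb of merged exons, the last chosen after seeing the data. With a library left out the differences in share were -7.35 to -1.86 points for Dnmt1, -6.67 to -2.81 for Dnmt3a, 4.67 to 12.6 for Dnmt3b, -10.5 to 7.84 for Tet1, 0.69 to 5.12 for Tet2, -8.53 to 5.33 for Tet3 and -5.39 to 6.28 for Idh1. Mean counts were lowest for Tet2 and Tet3, at 123 to 950 per library.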
